A study of Homo sapiens with 6 samples.

Results

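The 34 genes described here belong to the NRF2 pathway, the main transcriptional program by which cells raise their defences against oxidants and electrophiles. They were chosen by symbol, as the transcription factor itself, its controls and its well-known targets, and all 34 were found among the 20461 entries with an Ensembl gene identifier. Transcripts were sequenced in ARPE-19, an established line of human retinal pigment epithelium, with 2 groups of 3 libraries. Control cells carried a control lentivirus and PDZK1 cells carried a PDZK1 overexpression lentivirus. Both groups received virus at an MOI (multiplicity of infection) of 10, with 48 h of transduction. Both were selected with 4 µg/ml puromycin and then held in 37.5 mM glucose for 48 h, so that the groups differ in the lentivirus and share the high glucose. No library at normal glucose was analysed here, and nothing in the labels says whether the libraries of a group came from separate cultures or transductions, so that p-values measure the spread between these libraries, which may be technical. The study measured NRF2 and HO-1 protein in cells of this kind and reported both as higher under high glucose. It described the pathway as activated with PDZK1 overexpression too. The comparison here asks whether transcripts of the pathway differ between the groups, and it does not measure protein.

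In the resting cell the adaptor protein KEAP1 binds NRF2, the product of NFE2L2, and hands it to a ubiquitin ligase built on CUL3 for degradation. Oxidants and electrophiles modify KEAP1, NRF2 accumulates and enters the nucleus, pairs with a small MAF protein such as MAFG, and binds the antioxidant response element in the promoters and enhancers of its targets. Those targets make and recycle glutathione and thioredoxin, supply NADPH, break down heme and store iron, and reduce, conjugate and export foreign compounds. The retinal pigment epithelium is exposed to light, high oxygen and oxidised lipid, and the pathway is known there as a defence against oxidative damage. Much of the control of NRF2 acts on the protein, which transcript levels do not measure.

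The cells' labels were checked first. PDZK1 was at 0.588, 0.583 and 0.834 CPM (counts of a gene scaled by TMM-normalised library size) in control replicates 1 to 3 and at 94.3, 77.5 and 89.2 CPM in PDZK1 replicates 1 to 3. Of 13 markers of retinal pigment epithelium, the keratins KRT8 and KRT18 and the transcription factors OTX2 and MITF had 35.4 CPM or more in every library. KRT8 and KRT18 overlap each other on opposite strands and have 50 and 67 numbered pseudogenes, so their counts are uncertain. Other markers were low. RLBP1, PMEL and TYRP1 lay between 0.971 and 5.18 CPM, and TYR and DCT had at most 4 counts in any library. SERPINF1 was at 1.24 ± 0.138 CPM in control cells and 0.697 ± 0.305 CPM in PDZK1 cells, without overlap (log2 fold change -0.83, adjusted p 0.294). BEST1 is described with FTH1 below. RPE65 and TTR had 0 counts in every library. A count of 0 allows up to 3 counts, or 0.0915 to 0.109 CPM depending on the library. Of 15 markers of other cell types, PTPRC of leukocytes, CDH5 of endothelium and CRX of photoreceptors had 0 counts in every library, but others did not. The macrophage and lysosome gene CD68 was at 131, 146 and 160 CPM in control cells and at 123, 126 and 126 CPM in PDZK1 cells (log2 fold change -0.22, adjusted p 0.134). The endothelial receptor KDR was at 4.91 ± 0.173 CPM in control cells and 3.55 ± 0.171 CPM in PDZK1 cells (-0.47, adjusted p 0.111), and the photoreceptor factor NRL had 17 to 48 counts. The groups did not overlap in CD68, KDR and the neuron gene RBFOX3, and the part of these genes in the results below was not tested. RBFOX3 had 6, 7 and 8 counts in control cells and 1, 0 and 0 in PDZK1 cells, and the filter on low counts removed it. Total counts ran from 27970618 to 32804567, and the 34 genes together held 1.15% to 1.22% of each library's counts.

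Letters of the factor's recognition element were looked for in short promoter windows of some of these genes. The core of the antioxidant response element was searched as TGACNNNGC, or GCNNNGTCA on the other strand, in RefSeq windows of 250 bases before to 50 after each gene's start (GRCh38.p14). Of the 34 genes, 26 matched a window by symbol, and 9 of these (34.6%) held the core on either strand, against 16.1% of all 27305 symbols with a window. Those 9 were KEAP1, GCLM, MGST1, TXNRD1, PGD, ME1, CBR1, EPHX1 and PIR. No window matched GSR, PRDX1, HMOX1, FTH1, AKR1B10, CBR3, ABCC1 or ABCC3 by symbol, so these genes were not searched. These are matches of letters, and binding of NRF2 to them was not measured. The runs below are shown because their genes recur in the results, and each is written 5′ to 3′ on the gene's strand with the core in capitals.
MGST1 (chr12:16347136-16347162, plus strand, after the start): gggacatcgTGACAAAGCaaattgtct
PGD (chr1:10398854-10398880, plus strand): ctcgccgggGCAATGTCAtctaggtgc
KEAP1 (chr19:10502785-10502811, minus strand): cccggctctGCTTAGTCAtggtgacct
GCLM (chr1:93909447-93909473, minus strand): acgatttctGCTTAGTCAttgtcttcc
TXNRD1 (chr12:104215671-104215697, plus strand): cacgggctaTGACTTCGCtgttgtcac
EPHX1 (chr1:225825267-225825293, plus strand): gagattggcTGACTTGGCaggactgtg
The core shown began 34 bases before the start in GCLM, 31 in KEAP1, 99 in TXNRD1, 78 in EPHX1 and 201 in PGD. TXNRD1 held further cores 8 bases before the same start and 102 bases before another start inside the gene, and KEAP1 held another core 54 bases before its start. Starts are those of RefSeq transcripts, and those of EPHX1, GCLM, KEAP1 and PGD lie inside the gene's span as given here. The cores shown for KEAP1 and GCLM have the same letters, on the opposite strand in both. In MGST1 the core began at base 31 of the transcript.

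The pathway was expressed over a range of several orders of magnitude, and its most abundant members were the ferritin genes. Levels between genes are compared here as FPKM (fragments scaled for transcript length and library size), averaged over the 6 libraries. FTH1, the ferritin heavy chain, led at 5046 FPKM (4649 to 5242 over the libraries), followed by FTL, the light chain, at 1335 FPKM (1270 to 1394). TXNRD1, the cytosolic thioredoxin reductase, stood at 558 FPKM (454 to 639), and none of these 3 overlapped the next gene in the order. MGST1, a microsomal glutathione transferase, at 392 FPKM and the peroxiredoxin PRDX1 at 310 FPKM overlapped each other in their library ranges. TKT, TXN and TALDO1 formed the next group, at 186, 171 and 166 FPKM, with overlapping ranges. NQO1 followed at 96.0 FPKM and NFE2L2 itself at 60.2 FPKM. KEAP1 lay at 25.9 FPKM and MAFG at 12.2 FPKM.

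**Figure D1:**
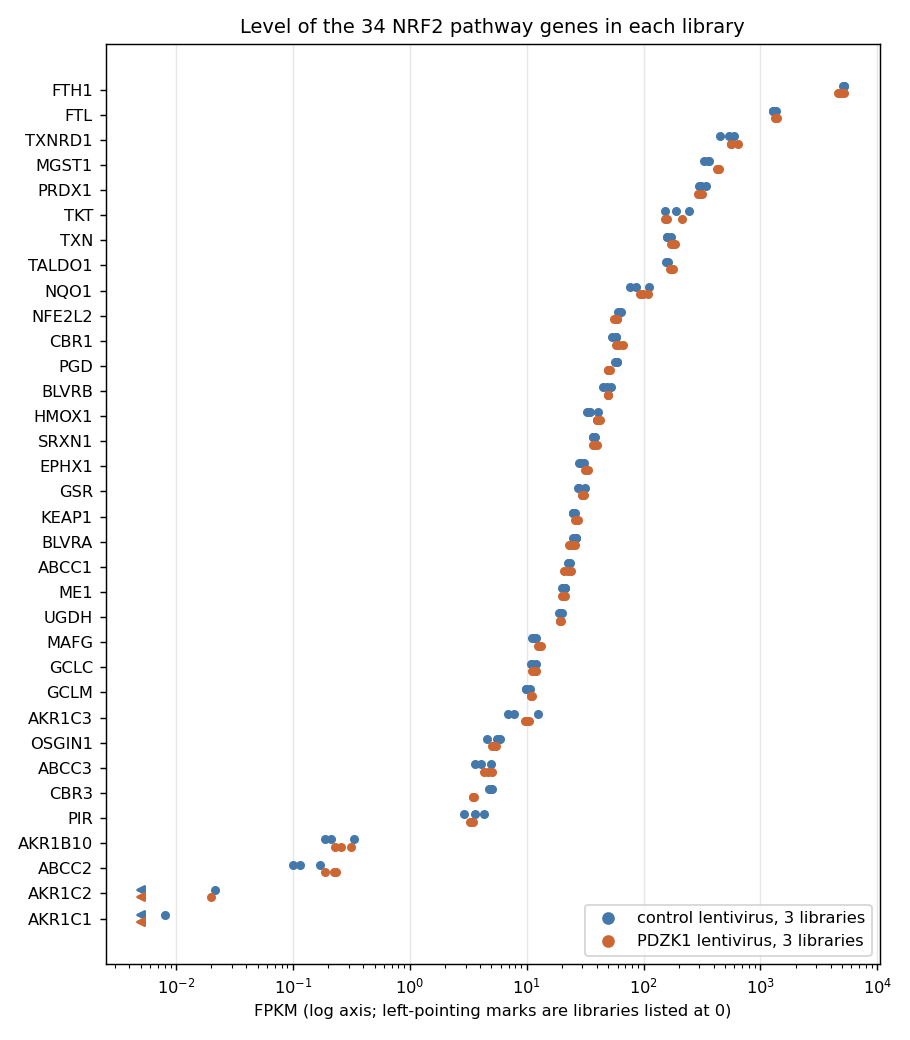
The level of each of the 34 genes in each library, as FPKM on a log axis, with genes in order of their mean and a point per library (blue control, orange PDZK1, 3 libraries each). FTH1 leads at a mean of 5046 FPKM, 30 genes lie above 2.9 FPKM in every library, and AKR1B10, ABCC2, AKR1C2 and AKR1C1 lie at or below 0.333 FPKM.

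The rate-limiting genes of glutathione synthesis, GCLC and GCLM, lay much lower, at 11.5 and 10.5 FPKM, and their ranges overlapped. The lowest members were aldo-keto reductases and an exporter. AKR1C1 had 2 counts in control replicate 1 and 0 in the other 5 libraries, and AKR1C2 had 3 counts in control replicate 3, 3 in PDZK1 replicate 3 and 0 elsewhere. Both were at or under the floor of 3 counts in every library, were removed by the filter on low counts and are given no fold change. AKR1C3, their close relative, had 288 to 450 counts. The 3 genes are close paralogs, and how reads that match more than 1 of them were counted is not given in the sources used here, so their values are uncertain. AKR1B10 had 11 to 19 counts and ABCC2, the apical exporter MRP2, had 21 to 48.

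Overexpression of PDZK1 was accompanied by 2 changes past the threshold among the 32 members tested, a rise of MGST1 and a fall of PGD. In bulk RNA, a change in the share of cells that express a gene and a change in its RNA per cell cannot be told apart. The threshold was an adjusted p under 0.05 in edgeR's quasi-likelihood test over all 13645 genes tested. These 2 genes are 6.25% of the members tested, against 3.83% of all genes tested, of which 1.41% were called higher and 2.41% lower. At an unadjusted p under 0.05 in edgeR there were 11 of the 32 members, 8 higher and 3 lower, against 2388 of all 13645 genes tested (17.5%). The log2 fold change was above 0 in 20 members and below 0 in 12, against 49.9% of all genes tested above 0, with a median log2 fold change of 0.061 over the members, against -0.00025 over all genes tested. The groups did not overlap in 12 members (37.5%), 8 of them higher and 4 lower, against 23.9% of all genes tested (11.6% higher, 12.3% lower). The 95% interval lay within a 1.25-fold change in either direction for 23 of the 32 members and within a 1.5-fold change for 28. The 4 whose interval reached beyond a 1.5-fold change were ABCC2, CBR3, AKR1B10 and AKR1C3. The count of members past the threshold was 5 without control replicate 3, 2 without control replicate 1 or PDZK1 replicate 3, and 1, MGST1, without any other single library. The 5 fits without a library other than control replicate 3 called 1.31% to 2.12% of all genes. In the fit without control replicate 3, which called 6.32% of all genes, HMOX1 (0.26, adjusted p 0.0171), AKR1C3 (0.44, 0.0338) and ABCC3 (0.32, 0.0245) joined MGST1 and PGD.

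**Figure D2:**
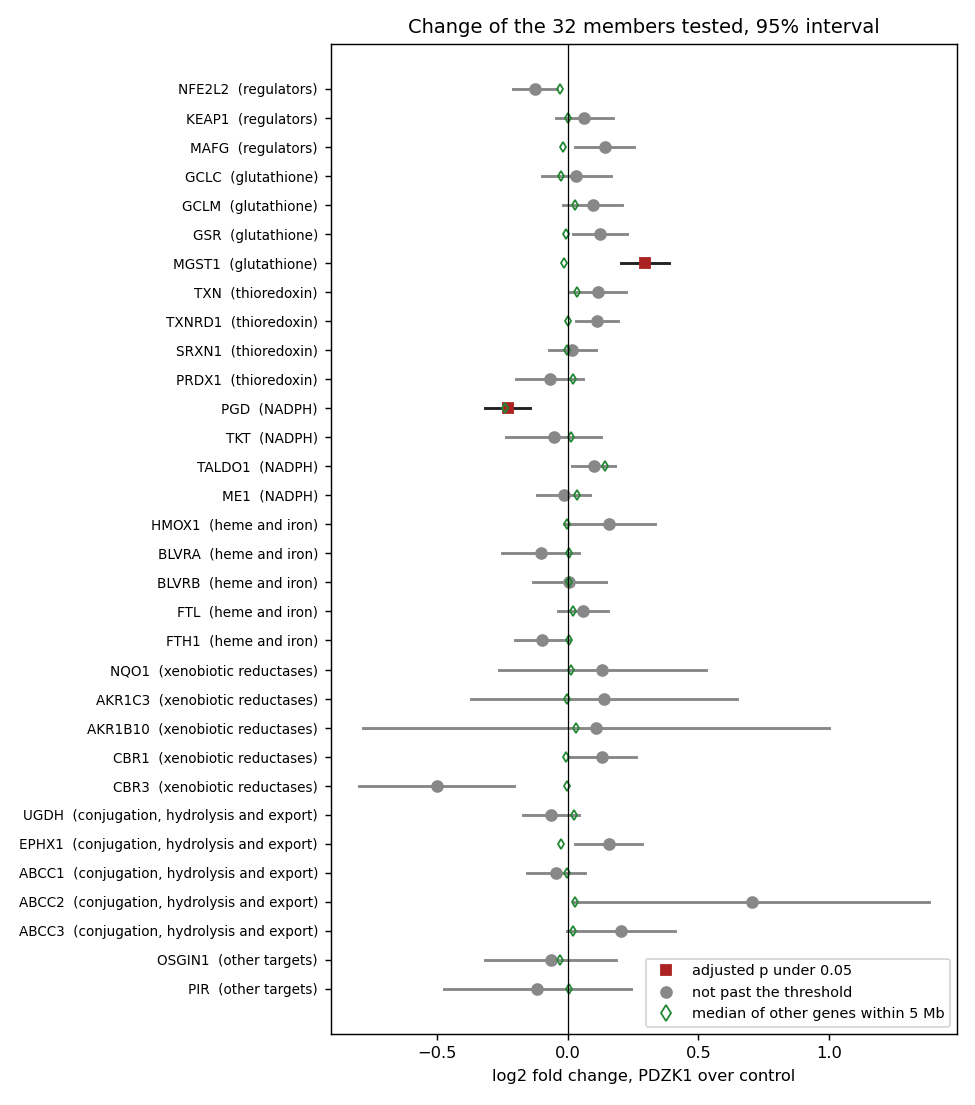
The log2 fold change of PDZK1 over control for each of the 32 members tested, with its 95% interval from edgeR (n = 3 libraries per group), and a green diamond at the median change of the other tested genes within 5 Mb. Red squares, at 0.30 for MGST1 and -0.23 for PGD, passed the threshold, and the diamond of PGD lies at -0.24, beside its own value.

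Among the controls of the pathway, none of the 3 members passed the threshold, and NFE2L2 and MAFG had log2 fold changes of opposite sign. NFE2L2 (ENSG00000116044, chromosome 2, 177227595 to 177392697, minus strand, GRCh38) was at 184, 171 and 181 CPM in control cells and at 160, 168 and 164 CPM in PDZK1 cells. Every PDZK1 library lay below every control library. The log2 fold change was -0.13 (95% interval -0.21 to -0.041, adjusted p 0.109), and it ran from -0.16 to -0.095 over 19 alternative analyses. AGPS overlaps NFE2L2 on the opposite strand, with a log2 fold change of -0.031.

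KEAP1 (ENSG00000079999, chromosome 19, 10486120 to 10503741) was at 71.0 ± 2.38 CPM in control cells and 74.2 ± 3.07 CPM in PDZK1 cells (SD, n = 3 each). The ranges of the groups overlapped, and the log2 fold change was 0.063 (95% interval -0.046 to 0.17, adjusted p 0.566). MAFG (ENSG00000197063, chromosome 17, 81918270 to 81927714) was at 63.4, 65.7 and 60.3 CPM in control cells and at 68.4, 68.5 and 72.0 CPM in PDZK1 cells, without overlap. Its log2 fold change was 0.14 (95% interval 0.029 to 0.25, adjusted p 0.171). SIRT7 overlaps MAFG on the same strand, with a log2 fold change of -0.059.

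Of 18 further genes that control NRF2, all 18 were tested and 0 passed the threshold in edgeR, against 3.83% of all genes tested. At an unadjusted p under 0.05 there were 5 of the 18, 3 higher and 2 lower, against 17.5% of all genes tested. DESeq2 called 1 of the 18, RXRA, a nuclear receptor (edgeR log2 fold change 0.25, adjusted p 0.0775). The list holds the other small MAF proteins, the repressors BACH1 and BACH2, the degradation machinery and the cargo receptor SQSTM1. The small MAF gene MAFK had a log2 fold change of 0.21 (adjusted p 0.0889), and BACH1, which competes with NRF2 for its element, 0.15 (adjusted p 0.124). Neither gene's groups overlapped. MAFF, another small MAF gene, had the largest difference of the 18, at -0.37 (95% interval -0.71 to -0.021, adjusted p 0.258). It was at 31.0, 31.4 and 21.4 CPM in control cells and at 21.3, 20.5 and 23.2 CPM in PDZK1 cells, and it passed the threshold without control replicate 3. CUL3, the scaffold of the ligase that degrades NRF2, was at -0.12 (adjusted p 0.211), and SQSTM1 at -0.031 (adjusted p 0.846).

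In the glutathione branch all 4 members had a log2 fold change above 0, and MGST1 alone passed the threshold. MGST1 (ENSG00000008394, chromosome 12, 16347142 to 16609259, plus strand) conjugates glutathione to hydrophobic compounds and reduces lipid hydroperoxides at membranes. It was at 360, 354 and 331 CPM in control cells and at 436, 420 and 426 CPM in PDZK1 cells. The lowest PDZK1 library lay above the highest control library by more than the spread within either group. The level rose by 22.7%, a log2 fold change of 0.30 (SE 0.041, 95% interval 0.20 to 0.39, adjusted p 0.00402). It stayed past the threshold in all 19 alternative analyses, with log2 fold changes from 0.26 to 0.32 and adjusted p-values up to 0.0449. The 32 other tested genes within 5 Mb had a median of -0.014, with 13 higher and 19 lower. LMO3 overlaps MGST1 on the opposite strand and had 7 to 20 counts per library.

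The other glutathione genes did not pass the threshold. GSR, glutathione reductase, which returns oxidised glutathione to its reduced form with NADPH, was at 90.1 ± 3.95 CPM in control cells and 98.2 ± 3.43 CPM in PDZK1 cells, without overlap (log2 fold change 0.12, adjusted p 0.192). GCLM, the modifier subunit of glutamate-cysteine ligase, differed by 0.095 (adjusted p 0.379), also without overlap. GCLC, the catalytic subunit, differed by 0.033 (95% interval -0.098 to 0.16) with overlapping groups. The median deviation of the 4 genes from their 6-library means, in log2 CPM, was -0.098, -0.041 and -0.059 in control cells and 0.010, 0.077 and 0.093 in PDZK1 cells.

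In the thioredoxin branch none of the 4 members passed the threshold. TXNRD1 (ENSG00000198431, chromosome 12, 104215779 to 104350305) was at 1939, 1934 and 1930 CPM in control cells and at 2074, 2070 and 2123 CPM in PDZK1 cells. The groups did not overlap, and the log2 fold change was 0.11 (95% interval 0.031 to 0.19, adjusted p 0.134). DESeq2 called it (0.11, adjusted p 0.00389), and edgeR did not in any fit. TXN, thioredoxin itself, was at 126, 129 and 139 CPM in control cells and at 137, 150 and 139 CPM in PDZK1 cells. It had a log2 fold change of 0.11 (95% interval 0.0049 to 0.22, adjusted p 0.263), with overlapping groups. TXN has 7 numbered pseudogenes, so its counts are uncertain. SRXN1, which repairs overoxidised peroxiredoxins, stood at 0.017 and PRDX1 at -0.069, with overlap in both.

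In the NADPH branch PGD fell and the other 3 members did not pass the threshold. PGD (ENSG00000142657, chromosome 1, 10398592 to 10420144, plus strand) encodes the 6-phosphogluconate dehydrogenase of the pentose phosphate pathway. PGD was at 138, 147 and 145 CPM in control cells and at 119, 121 and 127 CPM in PDZK1 cells, so that every PDZK1 library was lower than every control library. This was a log2 fold change of -0.23 (95% interval -0.32 to -0.15, SE 0.038, adjusted p 0.011). The genes around PGD were mostly lower too. Of 68 other tested genes within 5 Mb, 66 were lower, with a median of -0.24, and PGD differed from that median by 0.0095 log2 units. The part of this stretch in the fall of PGD was not tested. PGD stayed past the threshold in 12 of 19 alternative analyses and in 3 of the 6 leave-one-out fits. Its adjusted p was 0.0775 when control replicate 2 was left out, 0.0833 when PDZK1 replicate 1 was, and 0.0525 when PDZK1 replicate 2 was.

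TALDO1, transaldolase of the same pathway, was at 207 ± 6.37 CPM in control cells and 222 ± 5.2 CPM in PDZK1 cells without overlap (log2 fold change 0.099, adjusted p 0.19). Its neighbours were mostly higher too. Of 68 other tested genes within 5 Mb on chromosome 11, 56 were higher, with a median of 0.14. The next largest neighbour median of a member was 0.035, at TXN. TKT, transketolase, was at 495, 502 and 601 CPM in control cells and at 515, 537 and 486 CPM in PDZK1 cells. Control replicate 3 was the highest, and the log2 fold change of -0.055 (95% interval -0.24 to 0.13, adjusted p 0.784) became 0.040 without it. ME1, malic enzyme, differed by -0.017 (95% interval -0.12 to 0.085).

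**Figure D3:**
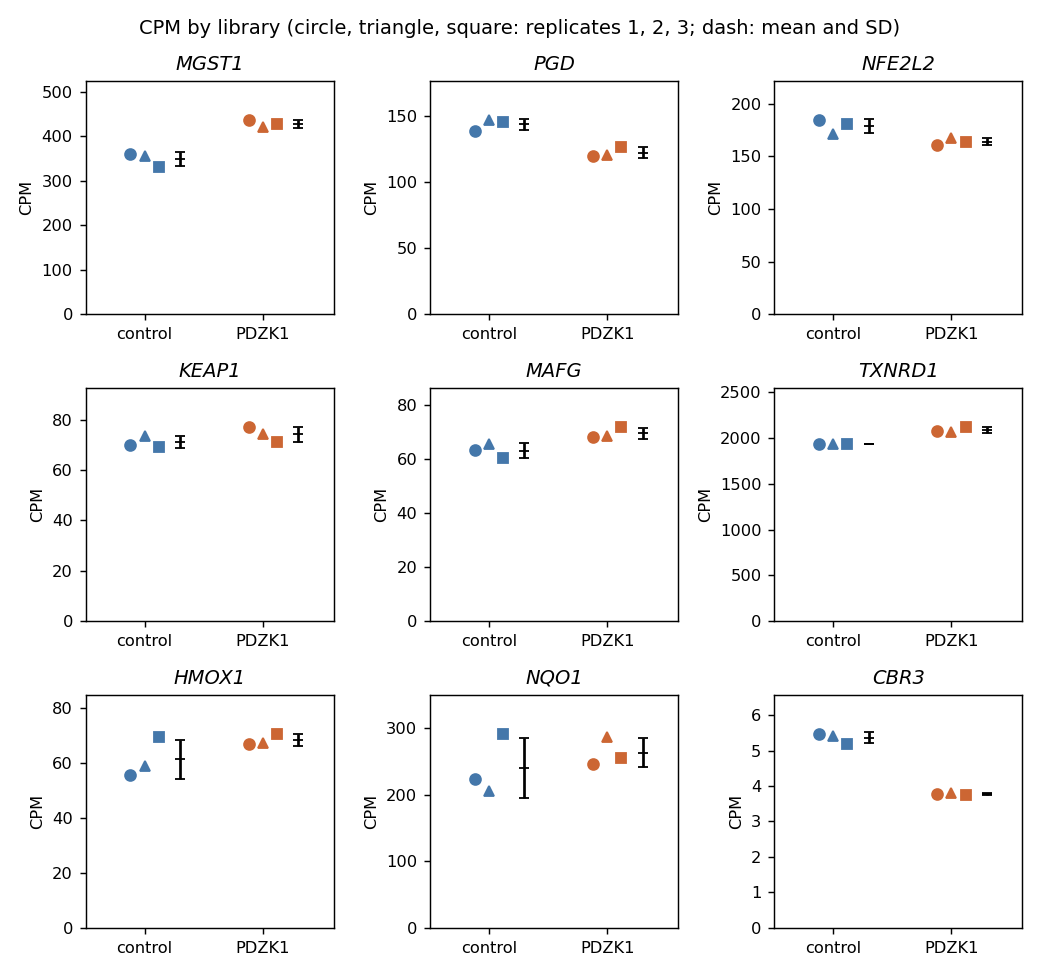
CPM of 9 members in each library, with the mean and SD of each group (n = 3) and axes from 0. MGST1 is higher and PGD lower in every PDZK1 library, TXNRD1 and CBR3 are tight within their groups, and for HMOX1 and NQO1 control replicate 3 (squares, at 69.3 and 292 CPM) lies among the PDZK1 libraries or above them.

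Among the genes of heme breakdown and iron storage none of the 5 members passed the threshold, and the value of HMOX1 changed with control replicates 1 and 3. HMOX1 (ENSG00000100292, chromosome 22, 35380361 to 35394214) encodes heme oxygenase 1, which opens the heme ring to biliverdin, iron and carbon monoxide. It was at 55.5, 58.9 and 69.3 CPM in control cells and at 66.9, 67.3 and 70.6 CPM in PDZK1 cells. Control replicate 3 lay within the range of the PDZK1 libraries and the other controls below it. HMOX1 differed by 0.16 on the log2 scale (95% interval -0.016 to 0.33, SE 0.078, adjusted p 0.34). It was 0.26 (adjusted p 0.0171) without control replicate 3 and 0.092 (adjusted p 0.607) without control replicate 1.

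The biliverdin reductases, which make bilirubin, differed little, with log2 fold changes of -0.10 for BLVRA (95% interval -0.25 to 0.044) and 0.0048 for BLVRB (95% interval -0.14 to 0.15). FTL was at 1237 ± 51.9 CPM in control cells and 1288 ± 29.1 CPM in PDZK1 cells, with a log2 fold change of 0.058 and overlapping groups. FTL has 16 numbered pseudogenes and FTH1 25.

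FTH1 (ENSG00000167996, chromosome 11, 61959718 to 61967660, minus strand) was at 5533, 5468 and 5617 CPM in control cells and at 4897, 5189 and 5445 CPM in PDZK1 cells. The groups did not overlap, and the log2 fold change was -0.098 (95% interval -0.20 to 0.0086, adjusted p 0.332). BEST1, a chloride channel gene of retinal pigment epithelium, overlaps FTH1 on the opposite strand over 5798 bases. BEST1 had 181, 168 and 124 counts in control cells and 143 and 137 in PDZK1 replicates 2 and 3, but 11459 in PDZK1 replicate 1, the library in which FTH1 was lowest. As a share of the summed counts of both genes, BEST1 took 6.81% in PDZK1 replicate 1 and at most 0.101% in the other 5 libraries. The strandedness of the counting is not given in the sources used here, so reads of the 2 genes may not be separated. Tested as their sum, an analysis added after the counts of BEST1 had been seen, FTH1 and BEST1 had a log2 fold change of -0.065 (95% interval -0.15 to 0.020, adjusted p 0.424), and the sums still did not overlap between the groups. Without PDZK1 replicate 1 the log2 fold change of FTH1 alone was -0.057.

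**Figure D4:**
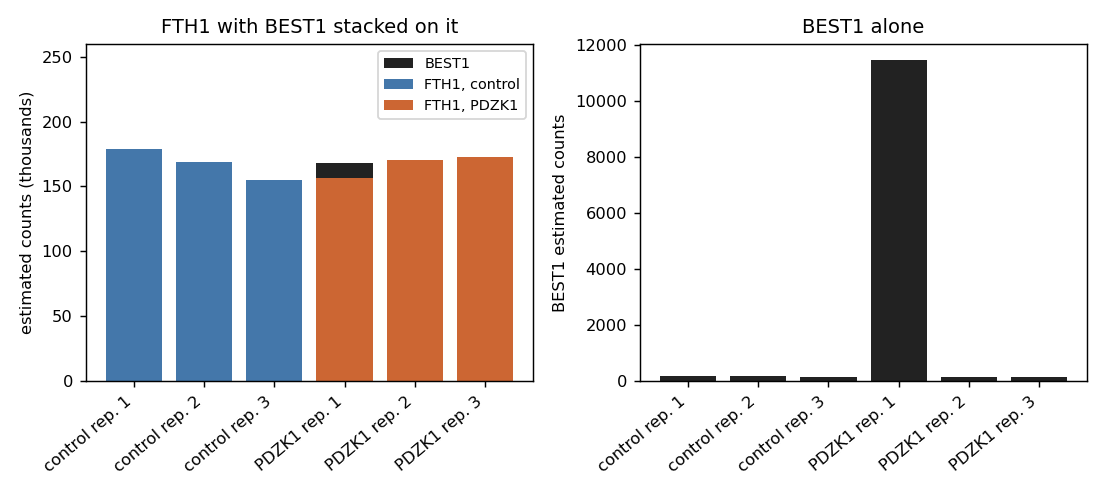
Estimated counts of FTH1 (blue control, orange PDZK1) with those of the overlapping gene BEST1 (black) stacked on them in each of the 6 libraries, and those of BEST1 alone in a second panel. BEST1 had 11459 counts in PDZK1 replicate 1 and 124 to 181 in the other libraries.

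Among the reductases of foreign compounds none of the 5 members tested passed the threshold, and NQO1 and AKR1C3 were both highest in control replicate 3. NQO1 (ENSG00000181019, chromosome 16, 69706996 to 69726951) reduces quinones with a 2-electron step that avoids radical intermediates. It was at 223, 205 and 292 CPM in control cells and at 246, 287 and 255 CPM in PDZK1 cells. The highest and the lowest values both belonged to controls, and NQO1 differed by 0.13 on the log2 scale (95% interval -0.26 to 0.53, SE 0.15, adjusted p 0.74). Without control replicate 3 it was 0.30 (adjusted p 0.094) and without control replicate 2 it was 0.031 (adjusted p 0.955). AKR1C3, which reduces prostaglandins and steroids, was at 8.92, 10.1 and 16.3 CPM in control cells and at 12.5, 12.8 and 13.4 CPM in PDZK1 cells. Control replicate 3 was again the highest of the 6.

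CBR3, a carbonyl reductase, had the most negative log2 fold change of the tested members and did not pass the threshold. CBR3 (ENSG00000159231, chromosome 21, 36134912 to 36146566) was at 5.48, 5.41 and 5.18 CPM in control cells and at 3.78, 3.81 and 3.75 CPM in PDZK1 cells. The groups did not overlap, and the spread within each was small. CBR3 differed by -0.50 on the log2 scale (95% interval -0.80 to -0.21, SE 0.13, adjusted p 0.0736). On log2(FPKM + 1), where the fold change of a low gene is understated, it was -0.40 and past the threshold (limma adjusted p 0.0213). An antisense gene, CBR3-AS1, overlaps it. CBR1, its neighbour and close relative on chromosome 21, stood at 0.13 (95% interval -0.00010 to 0.26, adjusted p 0.286), with overlapping groups.

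In the last steps of detoxification, conjugation and export, none of the 5 members passed the threshold. EPHX1 (ENSG00000143819, chromosome 1, 225810092 to 225845563), microsomal epoxide hydrolase, was at 52.8 ± 2.87 CPM in control cells and 58.8 ± 2.27 CPM in PDZK1 cells, without overlap. Its log2 fold change was 0.16 (95% interval 0.028 to 0.28, adjusted p 0.188). TMEM63A overlaps EPHX1 on the opposite strand, with a log2 fold change of 0.026. ABCC2 was at 0.650, 1.10 and 0.761 CPM in control cells and at 1.44, 1.46 and 1.20 CPM in PDZK1 cells. These levels rest on few counts, and the log2 fold change of 0.70 had an interval from 0.025 to 1.38 (adjusted p 0.267). ABCC3, the basolateral exporter MRP3, differed by 0.20 (adjusted p 0.293), with control replicate 3 within the range of the PDZK1 libraries. ABCC1, the exporter MRP1, stood at -0.044 and UGDH, which makes UDP-glucuronic acid, at -0.064, each with overlapping groups.

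The 2 remaining targets were not past the threshold. OSGIN1, a growth inhibitor induced by oxidised lipid, was at 11.6, 12.4 and 9.71 CPM in control cells and at 11.2, 10.2 and 10.8 CPM in PDZK1 cells. Its log2 fold change was -0.066 (95% interval -0.32 to 0.18, adjusted p 0.822). PIR, the iron-binding nuclear protein pirin, was at 6.04, 5.24 and 4.20 CPM in control cells and at 4.96, 4.61 and 4.73 CPM in PDZK1 cells. It stood at -0.12 on the log2 scale (95% interval -0.47 to 0.24, adjusted p 0.77). In both genes the lowest of the 6 libraries was control replicate 3.

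Control replicate 3 differed from the other controls in several members. In 7 of the 32 members it differed from the mean of control replicates 1 and 2 by more than 0.2 log2 units. It was higher in AKR1C3 (0.78), NQO1 (0.45), ABCC3 (0.32), HMOX1 (0.28) and TKT (0.27) and lower in PIR (-0.42) and OSGIN1 (-0.30). For MGST1, PGD, NFE2L2 and TXNRD1 the same difference was -0.11, 0.025, 0.024 and -0.0049. Control replicates 1 and 2 differed from each other by more than 0.2 log2 units in AKR1B10 (0.747), ABCC2 (0.706), BLVRB (0.221) and PIR (0.201). The share of all genes tested with such differences was not computed, so these counts describe the members only.

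Outside the 34 genes, 38 further targets associated with NRF2 were listed, of which 37 were found in the tables and 30 could be tested. Of these, 3 passed the threshold (10.0% of the 30), all 3 higher in the PDZK1 libraries, against 3.83% of all genes tested and 1.41% called higher, and ABCG2 and IDH1 among them are described here. ABCG2 (ENSG00000118777, chromosome 4, 88090264 to 88231322), an exporter of urate and drugs, was at 9.22, 10.2 and 12.5 CPM in control cells and at 15.2, 17.1 and 16.0 CPM in PDZK1 cells. The log2 fold change was 0.60 (SE 0.12, adjusted p 0.0236), and without a library at a time the threshold was passed only without control replicate 3 (0.73, adjusted p 0.00194). ABCG2 passed it in 12 of 19 alternative analyses. Of 30 other tested genes within 5 Mb of ABCG2, 22 were higher, with a median of 0.074. IDH1 (ENSG00000138413, chromosome 2, 208236227 to 208266074), a cytosolic source of NADPH, differed by 0.19 on the log2 scale (SE 0.042, adjusted p 0.0419). It too passed the threshold in 1 of the 6 leave-one-out fits, that without control replicate 3 (0.23, adjusted p 0.00212). IDH1 passed it in 8 of 19 alternative analyses. Of 30 other tested genes within 5 Mb of IDH1, 13 were higher and 17 lower, with a median of -0.028. Among genes of the same list not past the threshold, the cystine transporter SLC7A11 stood at 0.11 (95% interval -0.19 to 0.42). SLC7A11 was named for its known role, after its values had been seen.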

How the data were processed

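RNA was sequenced from 6 libraries of ARPE-19 cells, 3 with a control lentivirus and 3 with a PDZK1 lentivirus. The authors deposited estimated counts per gene and FPKM values. The submitters' processing notes name fastp 0.20.1, HISAT2 2.2.1 and GRCh38, while the counting program, annotation and strandedness are not given in the sources used here. Library totals of the deposited counts were 27970618 to 32804567. The 3 columns of each table that match no sample were not used, and columns were matched to samples by name. Entries without an Ensembl identifier, which are assembled loci holding 0.519% to 0.536% of counts, were left out.

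The deposited counts, already whole numbers, were filtered with filterByExpr, scaled by TMM and tested with edgeR 4.0.16 (robust quasi-likelihood, Benjamini-Hochberg adjustment over 13645 genes, threshold 0.05) in R 4.3.3. CPM were computed from TMM-scaled totals, and ± is the SD. The floor for a count of 0 was 3 counts, and it covers counting error only. Levels between genes used the authors' FPKM. Alternatives used DESeq2 1.42.0, limma 3.58.1 (voom, and log2(FPKM + 1) or log2(FPKM + 0.1)), other scalings and filters, a replicate block and fits without each library. Scripts were tested on simulated data. Coordinates and overlaps are from GENCODE release 29 (GRCh38), and promoter windows from RefSeq.

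The members and lists were chosen with earlier results of these data known. Full statistics were given for members past the threshold, for NFE2L2, KEAP1, HMOX1 and NQO1, and for the most abundant and the most changed tested member of each branch. Other members are given with fewer statistics, and genes named from the other lists without passing the threshold were chosen after their values were seen. Some listed genes are counted in the totals and not reported here by name.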

Additional observations from a re-analysis of the deposited data

How the results depend on the processing

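Of 19 alternative analyses, MGST1 passed the threshold in 19 and PGD in 12. The count of members past the threshold was 2, and ran from 1 to 5 in leave-one-out fits, with 5 without control replicate 3. On log2 FPKM, CBR3 was past the threshold in place of PGD, whose adjusted p was 0.0626 to 0.0741 there. The count for the other pathway genes was 3, and became 1 on log2(FPKM + 1), 1 on log2(FPKM + 0.1), 0 on log2(FPKM + 1) without a filter and 1 to 5 without a library. The causes were not tested.

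Same-numbered libraries did not deviate together over the genes tested as a whole, with correlations of residuals of -0.046, -0.056 and -0.14. A correlation over all genes cannot show whether these libraries share a culture or batch that acts on fewer genes, and this was not tested. With the replicate block, 1 member (MGST1) and 1 other pathway gene were past the threshold, in a fit that called 1.19% of all genes, and PGD was at -0.23 (adjusted p 0.0535).

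The median of conjugation and export was 0.16 and became 0.058 on log2(FPKM + 1) and 0.062 on log2(FPKM + 0.1), fits whose filter tests 30 members, and 0.11 on log2(FPKM + 1) without the filter. Without a library at a time, the median of heme and iron ran from -0.05 to 0.041 and that of the xenobiotic reductases from -0.029 to 0.15. Members whose direction turned in a fit without a library, none of them past the threshold in the fit to all libraries, were SRXN1 (-0.014 to 0.037), TKT (-0.10 to 0.040), ME1 (-0.043 to 0.0046), BLVRB (-0.050 to 0.062), AKR1C3 (-0.029 to 0.44), AKR1B10 (-0.063 to 0.40), ABCC1 (-0.093 to 0.0035), OSGIN1 (-0.16 to 0.0093) and PIR (-0.24 to 0.011). ME1 was also at 0.0011 with library totals only. With 3 libraries a group, intervals that reach beyond a 1.5-fold change in ABCC2, CBR3, AKR1B10 and AKR1C3 leave the size of their difference uncertain.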

Other observations

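TXNRD1 was tight in counts and spread in FPKM. Its ratio of FPKM to CPM was 0.306, 0.235 and 0.281 in control cells and 0.272, 0.269 and 0.301 in PDZK1 cells, so that the highest was 1.30 times the lowest. For TKT the highest was 1.32 times the lowest. These were the only 2 of the 32 members tested above 1.25 (6.25%), against 11.99% of 13490 genes, and the median of the members was 1.02. The length that the authors used for each library is not given in the sources used here.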
